A study of Mus musculus with 28 samples.

Results

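The follistatin, activin and myostatin family was followed through the differentiation of C2C12 cells, an immortalised mouse myoblast line. Its 10 members were taken by gene symbol from a count table of 49089 genes: the ligand genes Mstn, Inhba and Inhbb, the secreted proteins Fst, Fstl1 and Fstl3, the receptors Acvr2a, Acvr2b and Acvr1b, and the intracellular inhibitor Smad7. Of these, 9 had enough reads to be tested and Mstn did not. RNA was sequenced with strand in 6 groups of 3 libraries each (18 in all): cells in growth medium (GM, 20% fetal bovine serum) and cells 12, 24, 48, 60 and 96 h after a switch, near confluence, to differentiation medium (DM, 3% horse serum). Open chromatin (ATAC-seq, 2 libraries a condition) and chromosome contacts (Hi-C, 3 libraries a condition) were measured in GM and at 60 h. All groups were wild type and of the same line. The serum type, the serum concentration and the time in DM changed together, so their parts in a difference from GM cannot be told apart.

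Myostatin and the activins are secreted ligands of the TGF-beta superfamily. They bind the type II receptors ACVR2A and ACVR2B, which recruit type I receptors such as ACVR1B, and these phosphorylate SMAD2 and SMAD3. Myostatin is known as a brake on muscle growth, follistatin traps activins and myostatin outside the cell and favours muscle growth, and SMAD7 blocks the receptors from within and is itself induced by the pathway.

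Library totals ran from 24.2 to 36.4 M counts (M, 10 to the power 6). Levels below are CPM, counts scaled to 1 M of the effective library size, and they compare a gene between samples but not 1 gene with another, because transcript lengths were not used. Separate cultures are not described for the replicates, which the labels call biological, so the spread that a p-value is measured against may be technical. Muscle identity was visible in GM, where the muscle lineage factor Myod1 stood at 47.0 ± 3.89 CPM (mean ± SD of 3 libraries). Myod1 was at 25.9 ± 2.5 CPM at 12 h and at 94.3 ± 7.26 CPM after 96 h. Myog, which drives terminal differentiation, stood at 13.4 ± 0.201 CPM in GM and was at 803 ± 15.3 CPM after 96 h. Of 8 muscle markers, 7 were called higher at 96 h and 1 lower, against 34.8% and 34.1% of all genes tested. The lower one was Myf5, at 74.0 ± 3.17 CPM in GM and 32.5 ± 0.901 CPM at 96 h. Of 5 markers each, the summed level of adipocyte and of bone and cartilage genes was at most 0.347 CPM in a library and that of glia and neurons at most 1.51 CPM. The sum for endothelium was 0.556 to 0.856 CPM in GM, 1.86 to 3.3 CPM at 48 h and 1.65 to 1.79 CPM at 96 h, and both tested markers, Tek and Vwf, were called higher from 24 h on. The untested endothelial markers had too few counts to show whether they moved with Tek and Vwf. Summed over the libraries of a group, Kdr had 17 counts in GM and 3 at 96 h. Pecam1 had 2 to 7 counts a group, with 4 in GM, 7 at 48 h and 3 at 96 h, and Cdh5 had 0 or 1. The sum for macrophages and blood was 2.3 to 2.35 CPM in GM and 0.633 to 1.02 CPM at 96 h, and its tested marker, Cd68, was called lower at each time. The part of these markers in the members' changes was not tested. The third 24 h library stood apart, with 33 of 4888 abundant protein-coding genes exceeding both other libraries of that time by 0.5 or more (log2). Of the members, only Fstl1, Inhbb and Acvr2a reached the mean log2 CPM of 5 needed to be checked, and none of them was among the 33. The other members, and values lower than in both other libraries, were not checked in this way. Without that library 6 members were again called at 24 h. In bulk RNA, fewer cells with a transcript and less of it in each cell cannot be told apart.

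Follistatin rose most among the members, activin B's gene Inhbb rose stepwise, and Inhba and Smad7 fell within 12 h and stayed low. Differences were tested with edgeR's quasi-likelihood F test over all 15303 genes that passed a count filter, and a gene was called at a Benjamini-Hochberg adjusted p under 0.05. Each log2 fold change is given ± SE of the fit over 3 libraries a group. The 5 comparisons with GM share the same GM libraries. At 12 h, 4 of the 9 tested members were called, 1 higher and 3 lower, against 35.0% of all genes tested (17.8% higher, 17.2% lower). At 24 h, 6 were called, 3 each way, against 60.8% (30.2% higher, 30.6% lower). At 48 h, 5 were called, 3 higher and 2 lower, against 65.4% (32.5% higher, 32.8% lower). At 60 h, 6 were called, 4 higher and 2 lower, against 65.3% (33.1% higher, 32.2% lower). At 96 h, 8 were called, 5 higher and 3 lower, against 68.8% (34.8% higher, 34.1% lower). With 9 members, 1 more or fewer call moves their total share, both directions together, further than its gap from all genes, except at 96 h. This does not hold for each direction taken alone. Nothing is read from the counts beyond this. Their median log2 fold change lay between -0.06 at 12 h and 0.20 at 96 h, beside 0.00 and 0.01 over all genes. The test of a difference at any time called 8 of the 9, all but Acvr2b, where it called 86.0% of all genes.

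**Figure D1:**
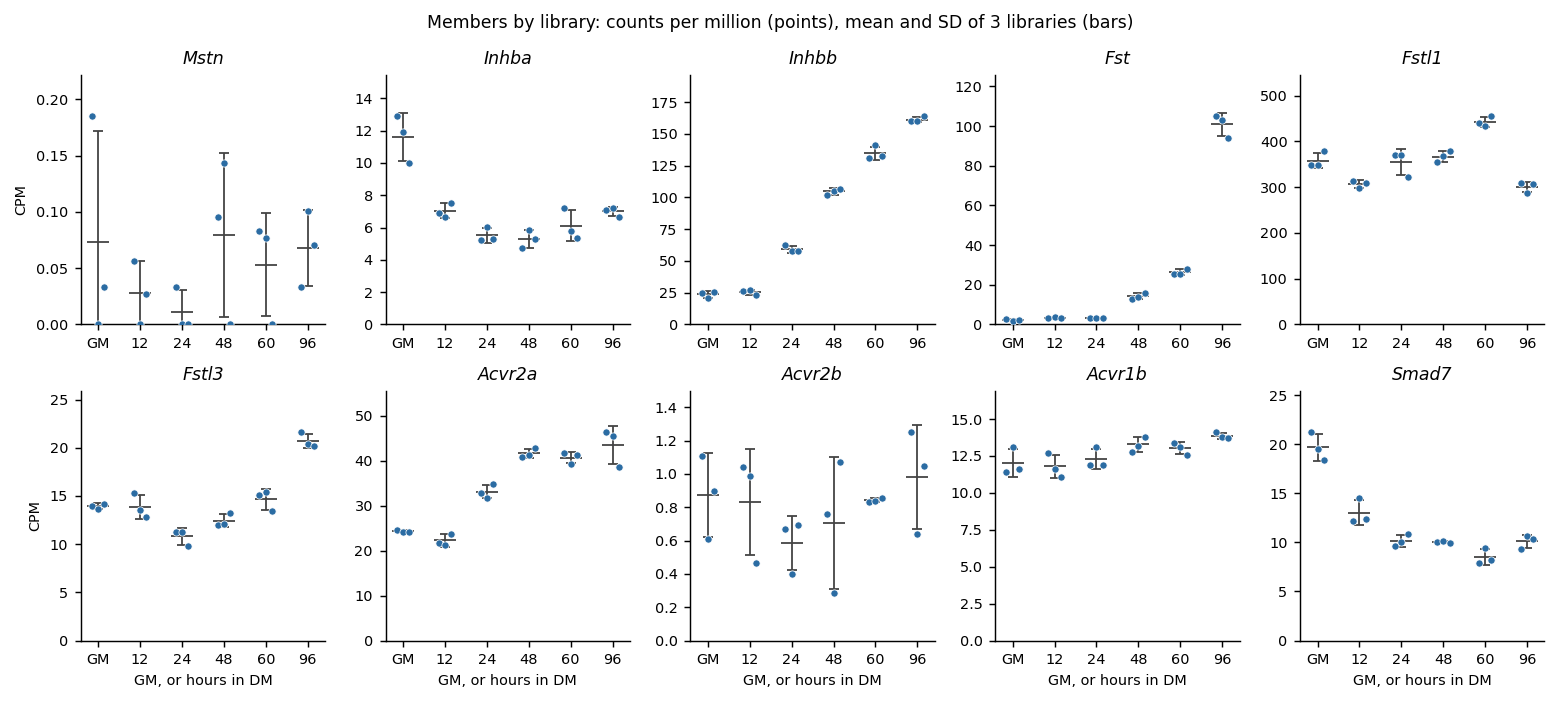
Level of each member in CPM (vertical axis, a scale of its own in each panel) in the 6 groups (horizontal axis); points are libraries, and bars give the mean and SD of 3 libraries. Fst climbs to between 94.0 and 105 CPM at 96 h, Inhbb climbs from 24 h on, Inhba and Smad7 are highest in GM, and Mstn stays under 0.2 CPM in each library.

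Among the ligands, Mstn, which encodes myostatin, was close to undetected throughout. Its raw counts were 5, 0 and 1 in the GM libraries, 2, 0 and 1 at 12 h, 1, 0 and 0 at 24 h, 3, 4 and 0 at 48 h, 2, 2 and 0 at 60 h, and 1, 3 and 2 at 96 h. The groups overlapped, and only GM replicate 1 and 48 h replicate 2 held more than 3 counts. A count of 0 allows up to 3 counts, between 0.0801 and 0.125 CPM in these libraries, a limit that covers counting error only. A change of Mstn within this low range was not detectable at this depth, and it did not enter the main test. With no count filter its adjusted p in edgeR ran from 0.23 to 1 over the 9 comparisons.

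Inhba encodes the beta A subunit, which pairs with itself to form activin A. It stood at 12.9, 11.9 and 10.0 CPM in the GM libraries and at 6.92, 6.68 and 7.54 CPM at 12 h. Further values were 5.21, 6.06 and 5.31 CPM after 24 h, 4.73, 5.83 and 5.28 CPM at 48 h, 7.19, 5.77 and 5.36 CPM after 60 h, and 7.11, 7.23 and 6.65 CPM at 96 h. Each DM library lay under each GM library, and the DM groups from 24 to 60 h overlapped. Inhba fell by 0.72 ± 0.11 (log2; adjusted p = 2.7e-05) at 12 h and by 1.14 ± 0.12 (adjusted p = 2e-08) at 48 h, its lowest mean. At 96 h it was still lower than in GM, by a log2 fold change of -0.73 ± 0.11 (adjusted p = 5.3e-06). Of the steps between neighbouring times, the one from 12 to 24 h was called, with a fall of 0.35 (log2; a log2 fold change of -0.35 ± 0.12, adjusted p = 0.016). Without 12 h replicate 3 that step was -0.30 (adjusted p = 0.058), and without 60 h replicate 1 the step from 60 to 96 h, 0.20, became 0.33 and was called (adjusted p = 0.038).

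Inhbb encodes the beta B subunit of activin B. Its values were 24.8, 20.8 and 25.6 CPM in GM and 26.1, 27.0 and 23.2 CPM at 12 h, and these groups overlapped. It then reached 62.2, 57.4 and 57.9 CPM after 24 h, 102, 105 and 107 CPM at 48 h, 131, 141 and 133 CPM after 60 h, and 160, 160 and 164 CPM at 96 h. From 12 h on no group overlapped the next, and each of the 4 steps was called. The step from 12 to 24 h was the largest, 1.22 ± 0.06 (log2; 2.32-fold; adjusted p = 6.8e-13), and the steps after it were 0.82 ± 0.06, 0.36 ± 0.06 and 0.26 ± 0.06. Against GM the log2 fold change was 0.10 ± 0.07 at 12 h (adjusted p = 0.26), 1.32 ± 0.07 at 24 h, 2.14 ± 0.07 at 48 h, 2.51 ± 0.07 at 60 h and 2.77 ± 0.07 at 96 h (6.80-fold; adjusted p = 1.7e-19). Leaving out 12 h replicate 3 brought the 12 h difference past the threshold. The Inhba and Inhbb levels thus moved in opposite directions against GM from 24 h on, each called at 24, 48, 60 and 96 h.

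The start regions of the 3 ligand genes differed in base composition and in whether they lay in open chromatin. They are shown because Mstn, close to undetected as RNA, was the only member of 8 with a listed start region whose start lay in no peak. Each line gives 250 bases before and 50 after the annotated start, on the gene's strand, from RefSeq (GRCm38.p6), with CG dinucleotides in capitals. Inhbb lies at chr1:119422199-119422498 on the minus strand, Inhba at chr13:16011601-16011900 on the plus strand and Mstn at chr1:53061390-53061689 on the plus strand.
Inhbb: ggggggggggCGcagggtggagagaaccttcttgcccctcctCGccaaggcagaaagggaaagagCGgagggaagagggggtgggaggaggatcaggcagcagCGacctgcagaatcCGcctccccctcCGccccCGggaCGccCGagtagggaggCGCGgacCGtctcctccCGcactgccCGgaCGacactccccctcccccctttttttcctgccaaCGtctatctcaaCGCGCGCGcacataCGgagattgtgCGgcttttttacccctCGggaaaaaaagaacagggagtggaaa
Inhba: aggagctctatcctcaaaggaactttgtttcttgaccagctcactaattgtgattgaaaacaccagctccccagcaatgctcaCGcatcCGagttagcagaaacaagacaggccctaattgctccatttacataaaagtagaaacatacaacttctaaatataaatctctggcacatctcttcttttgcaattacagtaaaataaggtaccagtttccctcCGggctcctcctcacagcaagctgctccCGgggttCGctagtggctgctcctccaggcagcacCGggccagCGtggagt
Mstn: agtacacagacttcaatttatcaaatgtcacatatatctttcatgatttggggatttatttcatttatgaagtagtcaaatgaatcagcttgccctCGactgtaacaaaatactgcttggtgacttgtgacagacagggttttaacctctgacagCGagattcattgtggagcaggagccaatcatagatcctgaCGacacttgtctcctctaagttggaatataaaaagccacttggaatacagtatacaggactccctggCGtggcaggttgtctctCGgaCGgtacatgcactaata
The Inhbb region held 23 CG dinucleotides and 64.3% G or C, the Inhba region 7 and 47.7%, and the Mstn region 6 and 41.3%. The median over 32851 RefSeq start regions was 7 and 52.7%. Both strands were searched for CANNTG (the E-box bound by MyoD and its relatives), its subset CAGCTG, the Smad element CAGAC, the GC-rich Smad element GGCGCC, the palindromic Smad element GTCTAGAC and the TATA box TATAAA. The Mstn region held 4 matches to CANNTG, at positions -229, -174, -52 and -19 from the start, 2 to CAGAC, at -244 and -120, and TATAAA at -29. The Inhba region held TATAAA at -91 and no other of these motifs, and the Inhbb region held none of them. Over all start regions CANNTG was found in 72.3%, CAGCTG in 16.3%, CAGAC in 49.6%, GGCGCC in 11.9%, GTCTAGAC in 0.213% and TATAAA in 13.6%. A match is a description of letters, not of binding.

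Fst encodes follistatin. It was at 2.52, 1.68 and 2.23 CPM in GM, 2.96, 3.90 and 3.09 CPM at 12 h, and 3.14, 3.23 and 3.10 CPM at 24 h. It reached 12.8, 13.8 and 15.7 CPM at 48 h, 25.3, 25.6 and 28.1 CPM after 60 h, and 105, 103 and 94.0 CPM at 96 h. Each DM library lay above each GM library, the 12 and 24 h groups overlapped, and from 24 h on no group overlapped the next. The rise over GM was 0.65 ± 0.15 (log2; adjusted p = 0.0016) at 12 h and 0.57 ± 0.15 (adjusted p = 0.0024) at 24 h. It was 2.73 ± 0.12 (adjusted p = 2.3e-14) at 48 h, 3.63 ± 0.11 (12.4-fold; adjusted p = 5.9e-17) at 60 h and 5.57 ± 0.11 (47.5-fold; adjusted p = 4.9e-21) at 96 h. The steps from 24 to 48 h (2.15 ± 0.11), from 48 to 60 h (0.91 ± 0.09) and from 60 to 96 h (1.94 ± 0.08) were each called.

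Fstl1 and Fstl3 encode secreted proteins related to follistatin, of which FSTL3 also binds activins and myostatin. Fstl1 was the most counted member, at 348, 348 and 378 CPM in GM, 314, 297 and 308 CPM at 12 h, 371, 370 and 321 CPM after 24 h, 354, 368 and 378 CPM at 48 h, 440, 434 and 455 CPM after 60 h, and 308, 288 and 306 CPM at 96 h. The 60 h libraries lay above all others and the 12 and 96 h libraries below all GM libraries. Against GM it fell by 0.23 ± 0.05 (log2; adjusted p = 0.0021) at 12 h, rose by 0.31 ± 0.05 (adjusted p = 2.9e-05) at 60 h and fell by 0.25 ± 0.05 (adjusted p = 0.00023) at 96 h. At 24 and 48 h it was not called, with log2 fold changes of -0.02 ± 0.05 and 0.03 ± 0.05. Its largest step was the fall from 60 to 96 h, with a log2 fold change of -0.56 ± 0.05 (adjusted p = 1.5e-08). The steps from 12 to 24 h (0.21 ± 0.05) and from 48 to 60 h (0.27 ± 0.05, or 0.17 with total counts as the scale) were called as well. Protein-coding genes held their lowest share of the counts at 60 h, 65.2 to 65.9% of a library, where Fstl1 was highest; the part of that share in the peak was not tested.

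Fstl3 was at 14.0, 13.6 and 14.2 CPM in GM, 15.3, 13.5 and 12.8 CPM at 12 h, 11.3, 11.3 and 9.77 CPM after 24 h, 12.0, 12.1 and 13.2 CPM at 48 h, 15.1, 15.4 and 13.4 CPM after 60 h, and 21.6, 20.4 and 20.2 CPM at 96 h. The 24 h libraries were the lowest and the 96 h libraries the highest, and neither overlapped GM. Fstl3 fell by 0.37 ± 0.08 (log2; adjusted p = 0.00049) at 24 h and rose by 0.57 ± 0.08 (1.49-fold; adjusted p = 9e-07) at 96 h. At 12, 48 and 60 h the log2 fold changes were -0.01 ± 0.08, -0.17 ± 0.08 and 0.07 ± 0.08, none of them called, though that at 48 h was with the 6 libraries of the comparison alone (adjusted p = 0.046) or without 48 h replicate 3 (-0.23; adjusted p = 0.032). The fall from 12 to 24 h had a log2 fold change of -0.36 ± 0.08, and the rise from 60 to 96 h was 0.50 ± 0.08 (adjusted p = 1.3e-05). The step from 48 to 60 h, 0.24 ± 0.08 (adjusted p = 0.034), passed in few settings: its call was lost in 23 of 26 alternatives, with an adjusted p of up to 0.22.

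**Figure D2:**
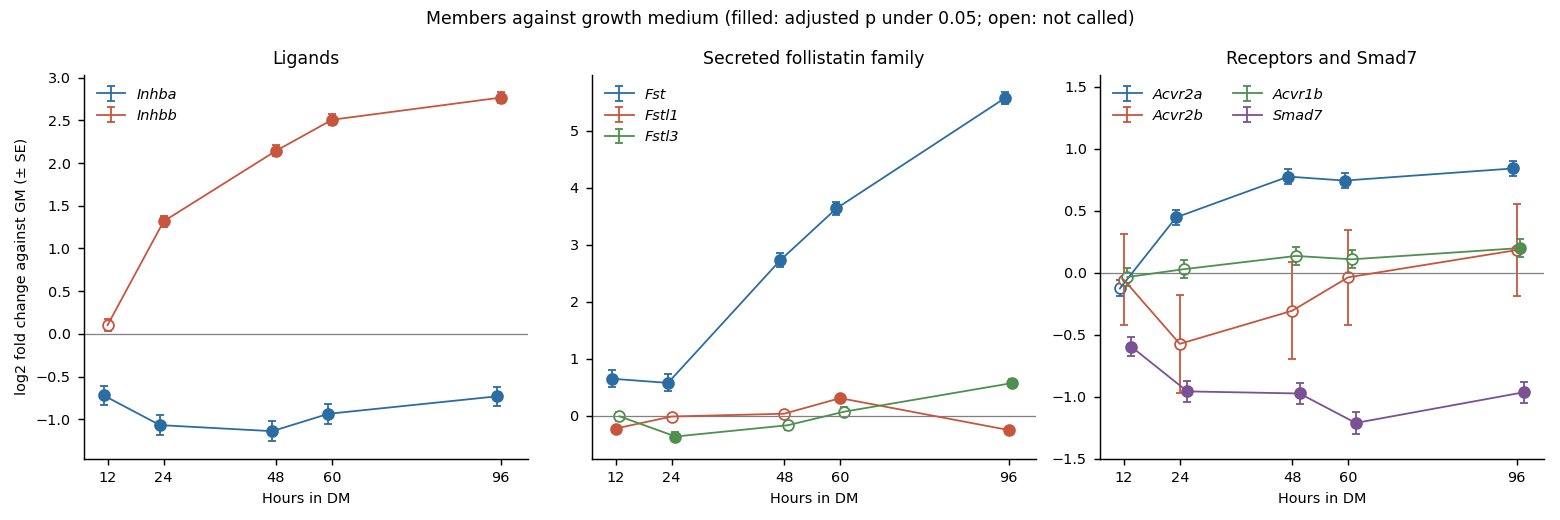
Log2 fold change of the 9 tested members against GM (vertical axis, a scale of its own in each panel) by hours in DM (horizontal axis, points of 1 time set slightly apart); bars are ± SE of the fit, filled points have an adjusted p under 0.05. Fst reaches 5.57 and Inhbb 2.77 at 96 h, while Inhba and Smad7 lie below 0 at each time.

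Of the receptors, Acvr2a rose, Acvr1b was called against GM at 96 h alone and Acvr2b was low and not called. Acvr2a, a type II receptor for activins, was at 24.5, 24.2 and 24.1 CPM in GM, 21.7, 21.3 and 23.8 CPM at 12 h, 32.8, 31.8 and 34.8 CPM after 24 h, 40.9, 41.2 and 42.8 CPM at 48 h, 41.6, 39.2 and 41.2 CPM after 60 h, and 46.3, 45.6 and 38.6 CPM at 96 h. All libraries from 24 h on lay above GM, and the 48, 60 and 96 h groups overlapped. Its log2 fold change against GM was -0.13 ± 0.06 at 12 h (adjusted p = 0.14), 0.45 ± 0.06 at 24 h, 0.78 ± 0.06 at 48 h, 0.74 ± 0.06 at 60 h and 0.84 ± 0.06 at 96 h (1.79-fold; adjusted p = 8.5e-11). The steps from 12 to 24 h (0.57 ± 0.06) and from 24 to 48 h (0.33 ± 0.06) were called and later ones were not, though without 96 h replicate 3 that from 60 to 96 h was (0.19; adjusted p = 0.0064).

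Acvr1b, the type I receptor that activins and myostatin share, had group means between 11.8 ± 0.808 CPM at 12 h and 13.9 ± 0.23 CPM at 96 h (SD, n = 3). Its libraries ran from 11.1 to 14.1 CPM. At 96 h all 3 libraries lay above the GM libraries, and the rise of 0.20 ± 0.07 (log2; 1.15-fold) had an adjusted p of 0.018. That call was lost in 8 of 26 alternatives, among them leaving out GM replicate 1 (0.15; adjusted p = 0.11), GM replicate 3 (0.17), 96 h replicate 1 (0.17) or 96 h replicate 2 (0.19). At 48 h it was 0.14 (adjusted p = 0.11), called without GM replicate 2 (0.19; adjusted p = 0.045). Acvr2b, the type II receptor with the highest affinity for myostatin, ran from 0.286 to 1.25 CPM with overlapping groups. Its log2 fold changes against GM lay between -0.57 ± 0.39 at 24 h and 0.18 ± 0.37 at 96 h, and the test of any time gave an adjusted p of 0.5. With SEs of 0.37 to 0.39, these data do not show that Acvr2b was unchanged.

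Smad7 was at 21.2, 19.5 and 18.4 CPM in GM, 12.2, 14.5 and 12.4 CPM at 12 h, 9.58, 10.0 and 10.8 CPM after 24 h, 10.0, 10.1 and 9.91 CPM at 48 h, 7.86, 9.40 and 8.21 CPM after 60 h, and 9.35, 10.6 and 10.3 CPM at 96 h. Each DM library lay under each GM library, and the 12 h libraries lay between GM and all later ones. Smad7 fell by 0.60 ± 0.08 (log2; adjusted p = 6.1e-06) at 12 h, 0.96 at 24 h (-0.96 ± 0.08) and 0.97 at 48 h (-0.97 ± 0.08). At 60 h the log2 fold change was -1.21 ± 0.09 (2.32-fold lower; adjusted p = 5.6e-11) and at 96 h -0.96 ± 0.08 (1.95-fold lower; adjusted p = 1e-09). The step from 12 to 24 h was called, with a log2 fold change of -0.36 ± 0.08. From 48 to 60 h it was -0.24 ± 0.09 (adjusted p = 0.059), not called but past the threshold in 19 of 26 alternatives, with an adjusted p between 0.0092 and 0.2 over all of them. A rise of 0.25 ± 0.09 from 60 to 96 h (adjusted p = 0.029) was lost without 60 h replicate 1 (0.20; adjusted p = 0.12), 60 h replicate 3 (0.22), 96 h replicate 2 (0.23) or 96 h replicate 3 (0.25; adjusted p = 0.055).

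Between neighbouring times, the members were called most often in the step from 12 to 24 h, and so were all genes tested. There, 6 of 9 were called, 3 each way, against 54.3% of all genes (27.8% higher, 26.5% lower). From 24 to 48 h, 3 were called, all higher, against 32.3% (17.5% higher, 14.8% lower). From 48 to 60 h, 4 were called, all higher, against 27.2% (15.8% higher, 11.3% lower). In that step the call of Fstl3, higher, was lost in 23 of 26 alternatives, and a call of Smad7, lower, was gained in 19. From 60 to 96 h, 5 were called, 4 higher and 1 lower, against 47.2% (22.6% higher, 24.6% lower). The split over all genes depended on the scale: 54.3% of the genes called from 24 to 48 h and 58.3% of those called from 48 to 60 h were higher, but 40.1% and 24.3% with total counts as the scale. For the step from 48 to 60 h the higher share was also 45.4% with upper-quartile factors, 44.8% with no count filter and 47.1% with a filter of 1 CPM in 3 libraries. Without 48 h replicate 1, that step had 2629 calls in place of 4157.

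The other genes of the pathway, 78 in 6 lists of which 57 were tested, moved in both directions. At 12 h 9 were higher and 22 lower, against 17.8% higher and 17.2% lower of all genes tested. At 96 h 33 were higher and 16 lower, against 34.8% and 34.1%. Their median log2 fold change was -0.10 at 12 h, 0.02 at 60 h and 0.21 at 96 h, where that of all genes was 0.00, 0.01 and 0.01. The lists were chosen with earlier results of these data known, and the genes named below are those with the largest called changes at 60 or 96 h.

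Of 7 other tested ligand genes of the TGF-beta superfamily, 5 were higher and 1 lower at 96 h. Tgfb2, a TGF-beta ligand, was at 5.04 ± 0.425 CPM in GM and at 26.8 ± 1.33 CPM at 96 h, a log2 fold change of 2.41 ± 0.07 (adjusted p = 5.4e-18). Bmp4, a bone morphogenetic protein, rose by 2.29 ± 0.09 at 96 h, and Gdf15, a stress-induced ligand, fell from 57.3 ± 4.64 to 20.4 ± 1.32 CPM, a log2 fold change of -1.49 ± 0.10. Tgfb1 was lower at 60 h (-0.55 ± 0.13) and higher at 96 h (0.34 ± 0.12).

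Of 9 tested genes of ligand processing and latency, 4 were higher and 3 lower at 96 h. Thbs1, whose product thrombospondin can activate latent TGF-beta, rose from 326 ± 19.5 to 2251 ± 124 CPM (log2 2.79 ± 0.05; adjusted p = 4.4e-21). Tll1, a protease that releases latent myostatin from its propeptide, rose by 2.78 ± 0.16 from a low level of 0.93 ± 0.153 CPM. The latent TGF-beta binding proteins Ltbp1 and Ltbp2 were lower at 96 h, by log2 fold changes of -1.21 ± 0.04 and -0.79 ± 0.07. Ltbp3 and Ltbp4 were lowest at 60 h (-1.30 ± 0.14 and -1.09 ± 0.13). At 96 h they stood higher again, at 65.2 ± 3.42 and 14.8 ± 1.45 CPM, beside 61.1 ± 4.78 and 18.9 ± 0.949 CPM in GM. Ltbp3 was among the 33 genes that stood apart in the third 24 h library.

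Of 5 other tested secreted inhibitors, 4 were higher and 1 lower at 96 h. Dcn, the proteoglycan decorin, which binds TGF-beta and myostatin, rose from 10.6 ± 1.64 to 163 ± 2.66 CPM (log2 3.94 ± 0.07; 15.4-fold; adjusted p = 3.5e-21). Chrd, the BMP antagonist chordin, rose by 2.13 ± 0.10. The BMP antagonist Grem1 fell from 641 ± 6.01 to 213 ± 9.23 CPM (-1.59 ± 0.06).

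Of 10 other receptors and co-receptors, 7 were higher and 2 lower at 96 h. The TGF-beta receptors Tgfbr2 and Tgfbr1 rose by 1.79 ± 0.05 and 0.95 ± 0.06. Bambi, a decoy receptor, fell from 0.739 ± 0.0665 to 0.26 ± 0.0704 CPM, and Fkbp1a, which binds type I receptors, had a log2 fold change of -0.26 ± 0.08. Acvr1, a type I receptor for BMPs, was lower at 60 h (-0.49 ± 0.07) and higher at 96 h (0.16 ± 0.07).

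Of 15 Smads and intracellular regulators, 8 were higher and 4 lower at 96 h. Smad3, which carries the activin and myostatin signal, went from 35.3 ± 2.01 to 87.1 ± 8.08 CPM (log2 1.30 ± 0.06; adjusted p = 2.3e-14). Smad6, the inhibitory Smad next in kind to Smad7, fell by 1.02 ± 0.12 (log2), and Smad9, a Smad of the BMP branch, had a log2 fold change of -1.83 ± 0.20. The corepressor genes Tgif1 at 60 h (0.42 ± 0.05) and Ski at 96 h (0.34 ± 0.06) were higher by smaller amounts. Of 14 Smad target genes, 6 were higher and 7 lower at 96 h. Cdkn1a, a cell cycle inhibitor that MyoD also induces, rose by 2.77 ± 0.05, Pmepa1, a target that damps the pathway, by 1.55 ± 0.06, and Ctgf, a matricellular factor, by 1.51 ± 0.07 at 60 h. Id1 and Id2, BMP targets that inhibit MyoD, had log2 fold changes of -2.60 ± 0.09 and -2.46 ± 0.11 at 96 h. Smad6, Ltbp2 and Skil stand in 2 lists each.

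**Figure D3:**
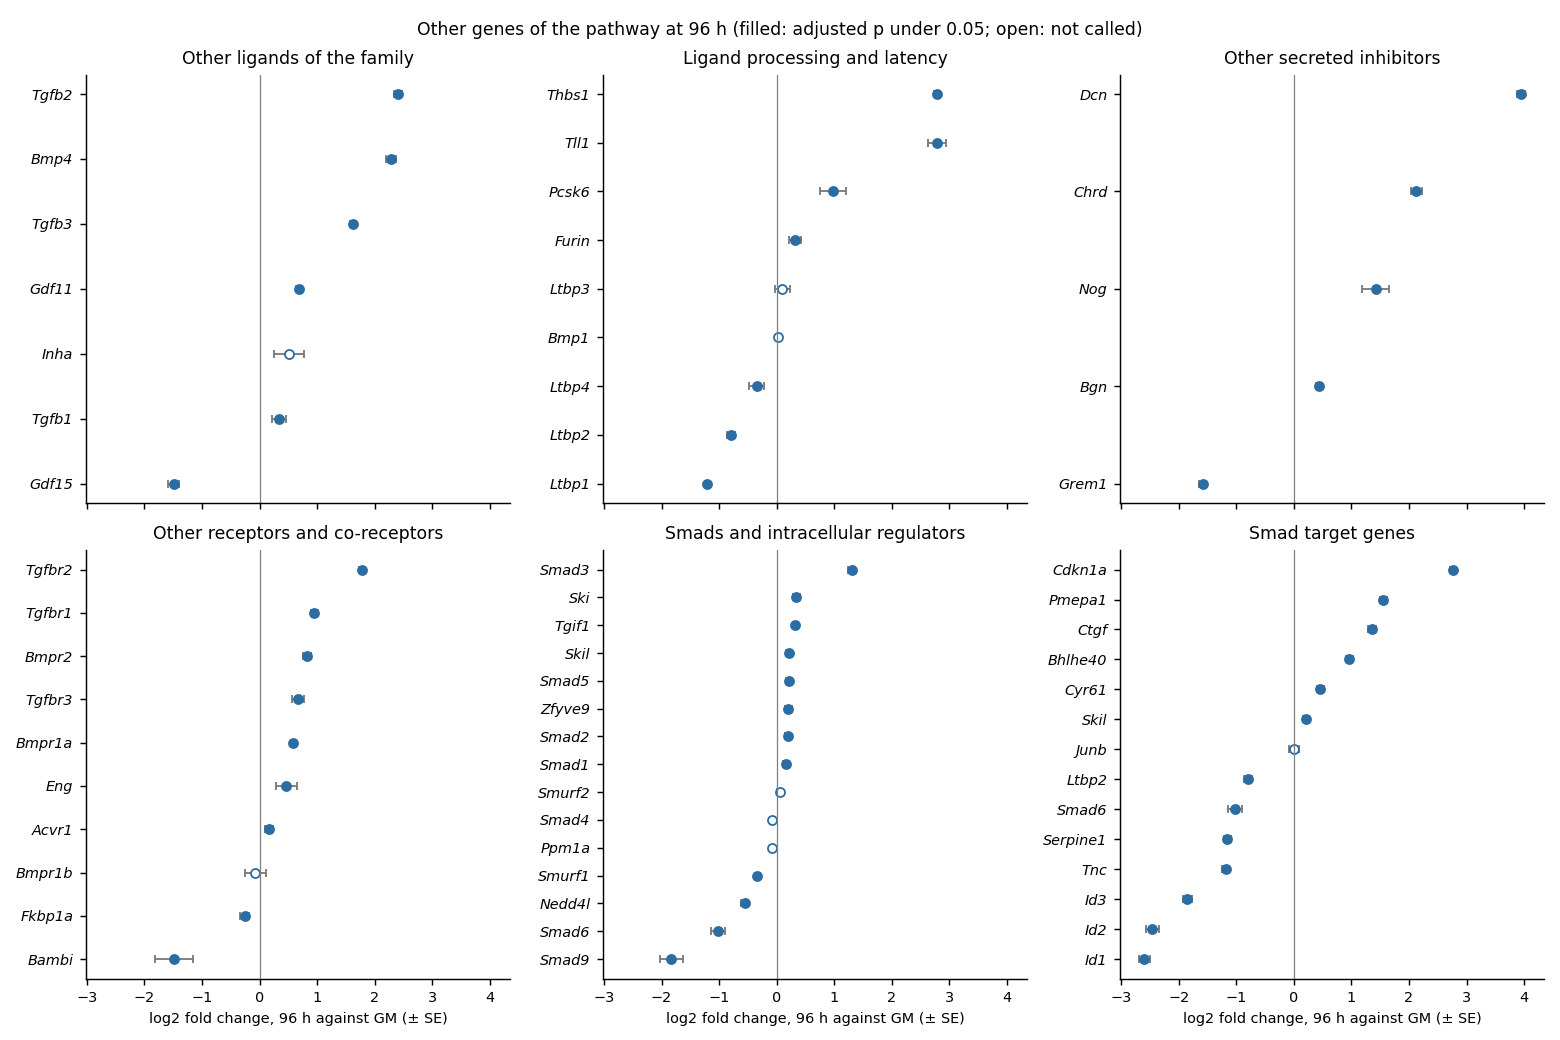
Log2 fold change at 96 h against GM (horizontal axis, ± SE of the fit) of the tested genes of 6 lists of the pathway, 1 list a panel; filled points have an adjusted p under 0.05. Dcn (3.94), Thbs1 (2.79) and Tgfb2 (2.41) lie far to the right, and Id1 (-2.60) and Id2 (-2.46) far to the left.

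Some genes followed a member's course closely over the 18 libraries, measured as Pearson's r of log2 CPM among about 2170 genes whose mean log2 CPM reached 3 and whose group means spanned 1 or more. These values describe libraries that share 1 time course and carry no test. Nearest to Fst were Tspan3, a tetraspanin (0.993), Cdkn1a (0.992) and Tnnt2, a troponin T of early muscle (0.992). Nearest to Inhbb were Tmem140 and the protocadherins Pcdhb17 and Pcdhb16 (0.995 each). Both protocadherins are from a cluster of similar genes whose reads may be shared. Nearest to Inhba were Ddit3, a transcription factor of the stress response (0.937), Cpox, an enzyme of haem synthesis (0.927), and Wars, a transfer RNA synthetase (0.926). Nearest to Smad7 were Slc1a4, an amino acid transporter (0.971), Nup188, a nuclear pore gene (0.962), and Cspg4, a proteoglycan gene (0.947).

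Most ATAC-seq peaks at the 10 loci were in both of the authors' peak lists. The lists hold 1 set of broad peaks per condition, so no test was possible, and fold enrichment and q values are the authors'. Within the genes and 10 kb each side there were 84 peaks in GM and 84 at 60 h, of which 74 and 73 overlapped a peak of the other list. With a −log10 q of at least 10 there were 56 in each, of which 51 and 50 overlapped. Over the whole lists, 80.4% of 181622 GM peaks and 76.7% of 189516 peaks at 60 h did. The annotated start was covered by a peak in both lists for 7 of the 8 members with a RefSeq start region, namely Fstl1, Fstl3, Inhba, Inhbb, Acvr2a, Acvr2b and Acvr1b, and in neither list for Mstn. Over all RefSeq start regions, 47.5% were covered in GM and 48.2% at 60 h. Among those with as few CG dinucleotides as Mstn or fewer, 16.1% were covered in GM and 17.4% at 60 h, and among those with more, 76.5% in each.

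At Fst (chr13:114452262-114458989, mm10), the strongest peak lay outside the gene, 4677 bases below its low-coordinate end in GM. It spanned chr13:114447027-114447585 with a fold enrichment of 7.79 and a −log10 q of 103 in GM, and chr13:114446859-114447609 with 11.7 and 553 at 60 h. The high-coordinate end was covered in both lists, by a peak with a fold enrichment of 3.18 in GM and of 3.08 at 60 h. These peaks differed in width. That in GM was 1500 bases long. That at 60 h was 2762 bases long and also overlapped a further GM peak of 609 bases (2.91). A GM peak 3590 bases above the high-coordinate end, with a fold enrichment of 3.51, had no partner at 60 h. A weak 60 h peak 7030 bases below the low-coordinate end, with a fold enrichment of 1.50 and a −log10 q of 2.45, had no partner in GM. A peak covered the high-coordinate end both in GM, where mean Fst RNA was lowest, and at 60 h, where it was 12.4-fold higher. A link between these peaks and the RNA was not tested.

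At Inhbb (chr1:119415463-119422248), 1 broad peak covered the start in both lists, with a fold enrichment of 2.83 in GM and 2.74 at 60 h, and a second lay upstream of the start (3.83 and 2.82). Past the gene's other end, 2 weak peaks (1.27 and 1.34) were listed at 60 h and none in GM, but their −log10 q was only 0.0079 and 0.20. At Inhba (chr13:16004256-16031609), 8 peaks in GM and 7 at 60 h included the start, with a fold enrichment of 4.53 and 4.35. An Inhba peak centred at -6.13 kb from the start had 3.48 in GM and 5.67 at 60 h, and another at -3.93 kb had 3.17 and 1.46. The start used here, chr13:16011851, lies inside the gene span, and so did both of these peaks. The low-coordinate end of the Inhba span had no peak within 1 kb in either list. At Mstn (chr1:53061640-53068079), 4 peaks in GM and 3 at 60 h all lay outside the gene, at least 1725 bases away, with a fold enrichment of at most 2.49.

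**Figure D4:**
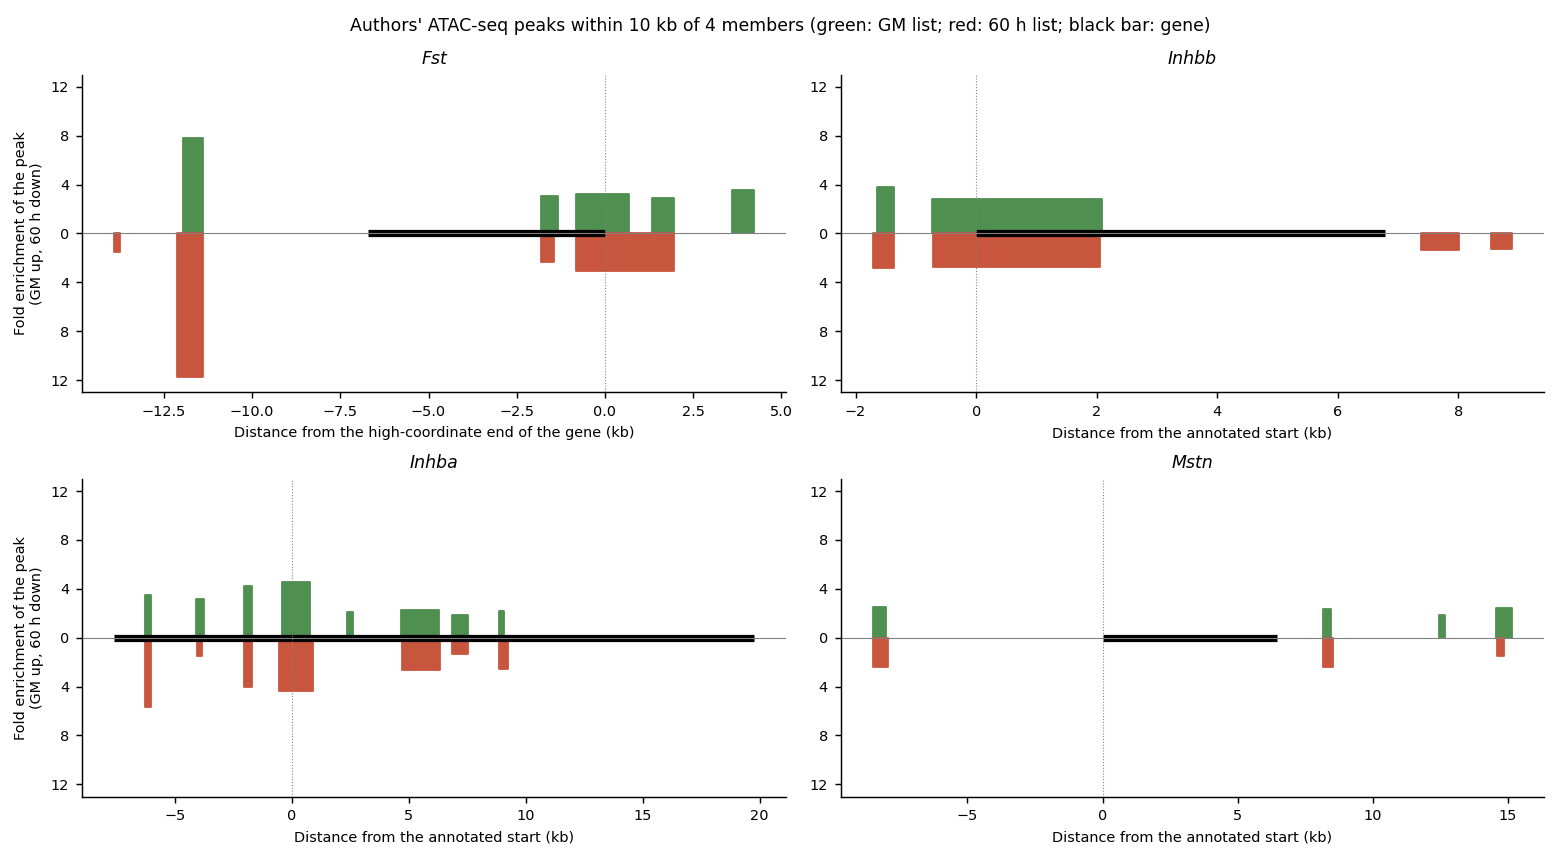
The authors' ATAC-seq peaks near 4 members, by distance in kb from the annotated start or, for Fst, from the gene's high-coordinate end (horizontal axis); bar height is the peak's fold enrichment (vertical axis; GM upward in green, 60 h downward in red), and the black bar is the gene. The tallest bars are those of the peak left of Fst (7.79 in GM, 11.7 at 60 h), and the Mstn gene itself holds no peak.

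Among the receptors, Acvr2a (chr2:48814109-48903264) had 13 peaks in GM and 15 at 60 h. A peak inside the gene, 72.1 kb past the start in GM, had a fold enrichment of 4.82 in GM and 8.29 at 60 h, and peaks 13.2 and 15.2 kb past the start were listed at 60 h alone (3.65 and 3.01). Another peak inside the gene, 34.9 kb past the start in GM, went the other way, with 5.80 in GM and 2.91 at 60 h. The strongest Acvr2a peak in GM, 33.0 kb past the start, had 5.95 in GM and 6.12 at 60 h. Acvr1b had 13 and 12 peaks and Smad7 15 in each list, 14 of the 15 Smad7 peaks overlapping between lists.

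The authors' loop table, with anchors of 25 kb, held 117 loops with an anchor at a member, 47 listed in GM alone, 49 at 60 h alone and 21 (17.9%) in both, where 11.2% of all 63732 loops were listed in both. Inhba had 28 loops and Acvr2a 25, against a median of 4 and a 90th percentile of 12 over protein-coding genes. Loops were counted over each gene and 10 kb each side, so a longer gene can touch more anchors. The comparison was not matched for length, and Inhba spans 27.4 kb and Acvr2a 89.2 kb. Fst had 6 (1 in GM alone, 2 at 60 h alone, 3 in both) and Inhbb 10 (4, 4 and 2). In the domain sets, made on bins of 40 kb, Fst, Inhba and Inhbb lay in domains with the same borders in GM and at 60 h, of 1.12, 0.92 and 2.12 Mb. The domain with Mstn was 0.6 Mb long in GM and 1.52 Mb at 60 h, and that with Fstl3 was 1.68 and 3.0 Mb. With 1 set per condition, none of these differences could be tested.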

How the data were processed

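The 28 samples, of 3 assays, were grouped by their titles. The deposited count table holds unscaled whole numbers for each gene. STAR, RSEM, DESeq2 and build mm10 are named per the submitters' processing notes, which do not tell how RSEM gave whole numbers. The deposited peak lists give per peak a fold enrichment (a ratio) and −log10 q values; the submitters' processing notes name Bowtie2 2.2.6, MACS2 2.2.7, SAMtools 1.9 and deepTools 2.5.2. The cutoff, and whether the 2 libraries of a condition were pooled, are not stated. The deposited domain and boundary files carry a score of unstated scale, not used here, and the loop table gives each loop's condition.

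One edgeR 4.0.16 fit (R 4.3.3) took in all 18 RNA libraries (TMM scaling, filterByExpr by group, quasi-likelihood F test, group alone, 12 residual degrees of freedom). Of 49089 genes, 22315 had no count and 15303 were tested, holding at least 99.95% of each library. The SE is the absolute log2 fold change over the square root of F. CPM uses the TMM effective library size. The fit was tested on simulated data. No pair of replicates was alike within sampling noise (chi-square over its degrees of freedom, 5.06 to 53.2). DESeq2 1.42.0, other scalings and filters, a replicate block and leaving out each library were alternatives. Gene positions and start regions came from RefSeq GRCm38.p6, the build of mm10; 8 of 10 members had a start region, and Fst and Smad7 are named only.

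The members and lists were chosen with earlier results of these data known. Named genes were the members; in each of 6 pathway lists at most 2 called genes each way with the largest change at 60 h or at 96 h; and, for members with a range of at least 1 (log2), the 3 most alike genes. Marker lists covered muscle, adipocyte, bone and cartilage, macrophage and blood, endothelium, and glia and neurons. For Ltbp4, which has 2 identifiers, the one with the larger count was used. One gene of the lists is not reported here.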

Additional observations from a re-analysis of the deposited data

How the results depend on the processing

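Of 47 called differences of members, 43 kept their call in all 26 alternatives and none of the 47 changed sign; the 4 that lost it (Acvr1b at 96 h, Fstl3 from 48 to 60 h, Inhba from 12 to 24 h and Smad7 from 60 to 96 h) are given above. The 45 differences of other named pathway genes kept their call and sign in each alternative in which they were tested. Some uncalled differences changed sign. Fstl3 at 12 h was 0.0082 with RLE factors, 0.024 with total counts, 0.029 with no count filter, 0.011 with a filter of 1 CPM in 3 libraries and 0.0095 with DESeq2, and -0.030 at 60 h with total counts. Acvr1b at 12 h was 0.0012 with total counts and 0.0051 with no count filter. Fstl1 at 24 h was 0.0022 with RLE factors, 0.033 with upper-quartile factors, 0.039 with total counts, 0.0090 with no count filter, 0.018 with 1 CPM in 3 libraries and 0.0019 with DESeq2. Leaving out 1 library, the lowest and highest values were -0.067 and 0.069 for Fstl3 at 12 h, -0.041 and 0.066 for Fstl1 at 24 h, -0.0071 and 0.087 for Fstl1 at 48 h, -0.069 and 0.061 for Acvr1b at 12 h and -0.00095 and 0.10 for Acvr1b at 24 h. For Acvr2b they were -0.24 and 0.26 at 12 h, -0.71 and 0.054 at 48 h, -0.29 and 0.14 at 60 h, and -0.053 and 0.40 at 96 h. The cause was not tested. The number of genes called from 48 to 60 h ran from 2629 to 4268 over the left-out libraries, and total counts as the scale moved the median of all genes by -0.104 (log2) in that step. With 50 kb each side of the genes there were 180 peaks in GM and 190 at 60 h, with 159 and 159 overlapping, since a larger window takes in more peaks.

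A replicate block left the counts of members called at 4 (12 h), 6 (24 h), 5 (48 h), 6 (60 h) and 8 (96 h), and of genes called at 60 h at 9911. No effect shared by libraries of the same number was visible. Deviations of same-numbered libraries of different groups correlated between -0.497 and 0.327 (median -0.03, 45 pairs, 9 over 0.1), and 2 of 18 libraries correlated best with their own number. These correlations cannot show whether same-numbered libraries came from the same cultures.

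Depth limits Mstn and Acvr2b most. With 1 peak, loop or domain set per condition, no difference in chromatin has a replicate check.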
